A study of Mus musculus with 18 samples.

Results

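ZHBTc4 is a mouse embryonic stem cell line, and the data described here follow it through the withdrawal of leukaemia inhibitory factor (LIF). The 6 arrays whose titles name the ZHBTc4 line were used, out of 18 in the series. They form 3 groups of 2 arrays, taken 24 h after plating with LIF, and 48 h and 120 h after LIF had been removed. Per the labels, the cells are of strain 129/Ola with a gene knock-in, and the labels of lines derived from them describe an oct4 transgene that tetracycline switches off. The labels name no tetracycline and no puromycin for ZHBTc4. All cultures were plated with LIF at 200000 cells in a 75 cm flask, and LIF was taken away 24 h later. The 120 h cultures had their medium changed once more, after 2 days. The groups without LIF were thus also older cultures, and the loss of LIF cannot be told apart from time in culture. The 2 replicates of a group are independent clones, per the series description. Each array compared sample RNA in Cy3 with one common reference RNA, pooled from 11 mouse cell lines, in Cy5. The other arrays came from the Oct4 and Oct4VP2 lines, derived from ZHBTc4 by adding an oct4 or an oct4-VP16 construct.

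LIF binds a receptor that contains gp130 and acts through the kinase JAK and the transcription factor STAT3. In mouse embryonic stem cells this signal helps to hold the factors of the pluripotent state, among them Oct4, Nanog and the Klf factors, at levels that favour self-renewal. When it is withdrawn in culture, the cells leave that state over several days and turn on genes of differentiated lineages.

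The arrays carried 42006 probes of 60 bases that were not controls. Each value is the log2 of the sample signal over the reference signal, so a value of 1 is a signal 2 times that of the reference. Between 62.8% and 66.1% of the probes were well above background in Cy3 on the 6 arrays, and no probe was saturated in Cy3. For 24.4% to 26.0% of the probes the processed signal of at least 1 dye was a substitute value. The 2 LIF arrays differed with an SD of 0.31 over the probes, the 48 h arrays with 0.47 and the 120 h arrays with 0.52. Both LIF arrays were on 1 slide, while replicate 1 of 48 h and of 120 h shared another slide and replicate 2 of both yet another. No array without LIF lay on the slide of the LIF arrays, so in comparisons with LIF its loss cannot be told apart from the slide. The LIF arrays and replicate 2 of both later groups were scanned in the second scan session, and replicate 1 of both later groups in the first. The small number of arrays limits the precision.

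The files do not pair probes with genes. A probe was named where at least 30 of its bases matched a window around a RefSeq transcript start (GRCm38.p6) at a single place spanned by a single gene on the same strand, which named 259 probes for 253 genes. Of these genes, 152 had a probe that passed the brightness filter. Named genes are therefore those whose probe lies near a transcript start, whether of that gene or of another transcript inside its span, and they are no random sample of the array. Whether a probe lies in an exon or an intron was not determined. Of the 586 genes in the lists of pluripotency, lineage and pathway genes, 4 had a named probe and 2 of them were tested. Of the 51 markers that define embryonic stem cells and the other cell types considered, only Acta2 had one, and it did not pass the filter. The labelled cell type could thus not be checked against its markers.

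The sequences below are the first 30 bases, 5′ to 3′, of the probes on which the results for named genes mainly rest. Coordinates are of the matched part of the probe in GRCm38.p6.
Tmc4, minus strand, chr7:3665794-3665853: gccctctgccacccgaatgctacactctca
Lamb2, plus strand, chr9:108490426-108490484: tccctagggcctagccttgtcgccaagcac
Zbtb8a, minus strand, chr4:129354034-129354093: ccggtgaatgggtttctcctactgacttag
Mllt6, plus strand, chr11:97685346-97685394: cctggaattgtgcatagcctgggtcttgta
Bcl11a, plus strand, chr11:24172868-24172927: ttgtgatgttttctgacagtagcctccaag
Gnl3, minus strand, chr14:31019000-31019059: actttccggcaggtcctggagcgcgtgacg
Homer2, minus strand, chr7:81609876-81609924: ggccctcgggtgccttctgctgcgtggcat
Mif, minus strand, chr10:75860228-75860276: gccggcttggggcggtactgagctgggtca
The probes of Mif and Rpl38 lie at a start of the gene, and the others elsewhere in the gene's span. Rpl38 was read by 2 probes whose starts lie 12 bases apart, and the capitals mark the bases that both stretches share.
Rpl38, plus strand, chr11:114668526-114668585: tactcagtttccTCTGTTGGGCGGGGTTAA
Rpl38, plus strand, chr11:114668538-114668597: TCTGTTGGGCGGGGTTAAccgtccggaagc

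The first question was how much had changed 120 h after LIF was removed. Of 28037 probes tested, 3928 (14.0%) were higher and 3150 (11.2%) lower than with LIF, which is 25.2% in all. A probe was called when its limma p, adjusted by Benjamini-Hochberg over all tested probes, was under 0.05 and the difference at least 2-fold. The median difference of the probes called higher was 1.69 on the log2 scale, and that of the probes called lower was -1.67. At least 4-fold differences were seen in 1426 of the higher and 1150 of the lower probes, and at least 16-fold ones in 126 and 96. The arrays of the 2 groups did not overlap in 3921 of the higher and 3146 of the lower probes. This nearly follows from the call itself and adds no support, and the share over all tested probes was not counted. With the same test on the Cy5 channel alone, in which every array held the same reference RNA, 379 probes were called, or 1.35%. On the Cy3 channel alone the balance turned, with 4098 higher and 4330 lower.

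Many of these probes crossed the detection limit. Of the 3928 higher probes, 768 were not well above background on either LIF array, and of the 3150 lower probes, 563 were not well above background on either 120 h array. The filter admitted 880 probes through the 120 h arrays alone and 524 through the LIF arrays alone. For such probes the filter itself favoured a difference, and their calls support nothing further. On the 24353 probes that were well above background on all 6 arrays, 2944 were higher and 2379 lower.

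**Figure D1:**
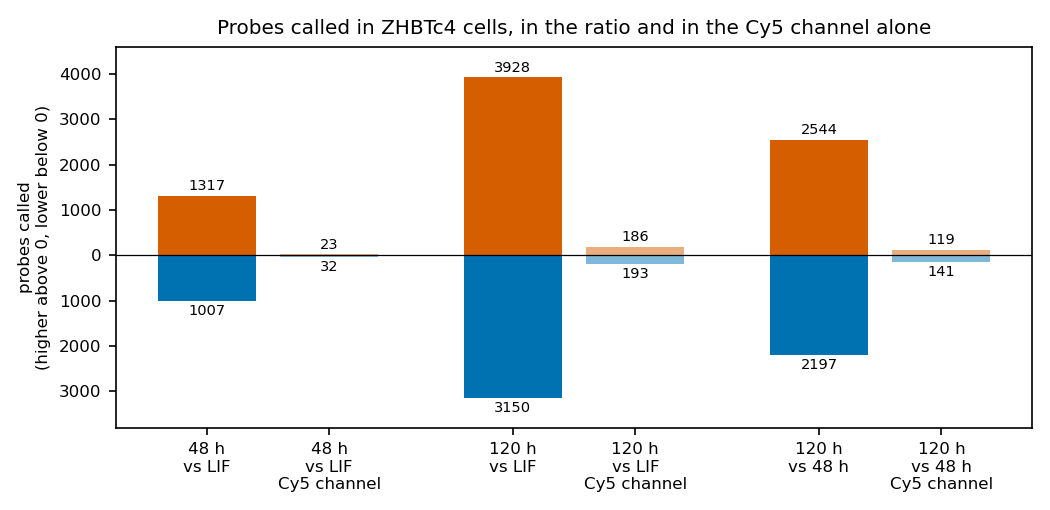
Number of probes called higher (orange, above 0) and lower (blue, below 0) in each comparison of the ZHBTc4 arrays, with the Cy5 reference channel tested alone in the paler bars. At 120 h against LIF, 3928 probes were higher and 3150 lower in the ratio, against 186 and 193 in the Cy5 channel.

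The probes with the largest differences have no gene name here. The probe Z00045205-1 had log2 ratios of -9.42 and -8.96 with LIF, -6.39 and -6.19 at 48 h, then -0.86 and 0.15 at 120 h. It was not well above background with LIF, and its signal was at least 261-fold higher at 120 h. Z00036180-1 had ratios of -6.63 and -6.81 with LIF, -3.02 and -3.61 at 48 h, then 0.98 and 1.41 at 120 h, a signal at least 63.7-fold higher at 120 h. Both rose over each interval, and the arrays of the 3 groups did not overlap. These lower bounds are from the Cy3 channel, after the arrays' mean intensities of both dyes had been quantile normalised. They set the bright group's mean against the lowest signal that counted as detected, or against the dim signal itself where that was higher. They are open to dye bias because no dyes were swapped.

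In the other direction, Z00037900-1 had ratios of 6.28 and 6.89 with LIF, 2.19 and 3.43 at 48 h, then 0.07 and 0.28 at 120 h. It was not well above background at 120 h, where its signal was at least 21.5-fold lower. Its value on 120 h replicate 1 equals the median ratio of that array, so it may be a stand-in and not a measurement. Z00002490-1 had ratios of 1.77 and 1.86 with LIF, -3.02 and -1.58 at 48 h, then -4.43 and -3.93 at 120 h. It was not well above background at 120 h, and its measured log2 difference there was -5.99, of which -4.11 was already seen at 48 h. Z00045205-1 and Z00036180-1 passed the filter at 48 h as well as at 120 h, and Z00002490-1 with LIF and at 48 h. Z00037900-1 passed through the LIF arrays alone, and its fall supports nothing further.

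Among the named genes, 8 of 152 were higher and 14 lower at 120 h, or 14.5%, against 25.2% of all probes. Their median log2 difference was -0.23, against -0.04 over all tested probes. In all 22 the arrays of the 2 groups did not overlap, as in nearly all called probes (3921 of 3928 higher and 3146 of 3150 lower). None of them (0) was called in the Cy5 channel, where 1.35% of all probes were. Of the 22, 7 passed the brightness filter only through the group in which they were higher, and their calls support nothing further: Ntng1, Chil5 and Gm11423 at 120 h, and Gm6882, 0610005C13Rik, Gm16853 and Xlr3b with LIF.

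Tmc4, a member of the transmembrane channel-like family, rose most among the genes that were bright in every group. Its log2 ratios were -1.03 and -0.77 with LIF, -0.35 and -0.52 at 48 h, then 1.73 and 1.74 at 120 h. The 120 h arrays stood clear of both earlier groups, 2.63 ± 0.17 (SE, n = 2 per group) above LIF on the log2 scale, or 6.20-fold (limma, adjusted p = 1.46e-06). Lamb2, the laminin beta 2 chain of basement membranes, had ratios of -2.51 and -2.36 with LIF, -2.80 and -2.91 at 48 h, then -1.13 and -1.07 at 120 h. It was 2.52-fold higher at 120 h than with LIF (adjusted p = 0.000167). On the Cy3 channel alone the Lamb2 difference was 0.96 (adjusted p = 0.00094), just under the 2-fold threshold.

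For a pair of further genes the 48 h arrays lay between those with LIF and those at 120 h. Il17rc, a subunit of the interleukin 17 receptor, had ratios of -2.94 and -2.92 with LIF, -2.35 and -2.44 at 48 h, then -1.62 and -1.54 at 120 h. Camta2, a calmodulin-binding transcription activator, had -1.42 and -1.26 with LIF, -0.58 and -0.84 at 48 h, then -0.19 and -0.35 at 120 h. They were 2.55-fold and 2.11-fold higher at 120 h than with LIF (adjusted p = 0.0159 and 0.000186). The Il17rc call was lost without any 1 of the 4 arrays compared, and the Camta2 call without LIF replicate 1 or 120 h replicate 1. Gm1673 was 2.59-fold higher, with 120 h arrays at 1.40 and 0.14 and LIF arrays at -0.71 and -0.49, and its call was lost without 120 h replicate 1 or LIF replicate 1.

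The remaining genes called higher were dim. Ntng1, a netrin-G that guides axons, was well above background on the 120 h arrays alone of the 3 groups, with ratios of 3.80 and 4.71, and its signal was at least 5.07-fold higher than with LIF. Chil5, a chitinase-like protein, and Gm11423, a long noncoding RNA, were likewise detected at 120 h alone, at least 1.83-fold and 2.09-fold higher. After normexp correction and loess the Ntng1, Chil5 and Gm11423 differences were 0.89, 0.41 and 0.28 on the log2 scale, below the 2-fold threshold. The correction added an offset of 50 to each signal, which pulls the ratios of dim probes towards 0 by construction.

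Zbtb8a, which encodes a zinc finger protein with a BTB domain, had the clearest fall. Its log2 ratios were 2.64 and 2.60 with LIF, 2.17 and 2.57 at 48 h, then -0.36 and -0.10 at 120 h. It was 7.22-fold lower at 120 h than with LIF, a log2 difference of -2.85 ± 0.18 (SE, n = 2 per group; limma, adjusted p = 1.45e-06). The 48 h arrays lay near the LIF arrays, and their difference from LIF, -0.25, did not pass (adjusted p = 0.400). Mllt6, a chromatin-associated protein known as a fusion partner of the leukaemia gene MLL, was lower in each later group. Its ratios were 1.26 and 1.43 with LIF, 0.62 and 0.66 at 48 h, and -0.29 on both 120 h arrays, 3.10-fold lower than with LIF (adjusted p = 3.57e-05). The 3 groups did not overlap.

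Gnl3, or nucleostemin, is a nucleolar GTP-binding protein abundant in stem cells and other dividing cells. Its log2 ratios were 3.03 and 2.93 with LIF, 2.22 and 2.66 at 48 h, then 1.07 and 1.87 at 120 h. It was 2.84-fold lower at 120 h (limma, adjusted p = 0.00203), although the 120 h arrays lay far apart. Rpl38, a protein of the large ribosomal subunit, had ratios of 2.71 and 2.70 with LIF, 2.76 and 2.85 at 48 h, then 0.90 and 1.52 at 120 h by its brighter probe, 2.82-fold lower than with LIF. The other Rpl38 probe gave a log2 difference of -1.77 against -1.49 by the first. Ribosomal protein genes have many processed copies in the genome, and reads of those copies cannot be separated from Rpl38 here.

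Prdx1, a peroxide-reducing enzyme, was 2.11-fold lower at 120 h, with ratios of 1.19 and 1.05 with LIF and 0.08 and 0.01 at 120 h. A second, dimmer Prdx1 probe differed by -0.62 and did not pass (adjusted p = 0.136). Slc22a20, an organic anion transporter, was 4.65-fold lower, with ratios of 4.52 and 4.37 with LIF and 2.33 and 2.12 at 120 h. The Cy5 signal of that probe differed by -0.94 between the same groups. On the Cy3 channel alone the Slc22a20 difference was -3.28 (adjusted p = 2.55e-06), against -2.22 in the ratio. The Slc22a20 call was lost without any 1 of the 4 arrays compared. Gm14393 had a log2 difference of -1.40.

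Genes not well above background on either 120 h array can only be given a bound. Gm6882 was at least 2.28-fold lower, the noncoding RNAs 0610005C13Rik and Gm16853 at least 2.30-fold and 2.53-fold, and Ppp2r3c, a regulatory subunit of protein phosphatase 2A, at least 2.29-fold. Defb36, a beta-defensin, was well above background on 1 LIF array and at least 1.47-fold lower at 120 h. Xlr3b, from an X-linked family of near-identical copies that its probe may not separate, was detected on both LIF arrays and on 1 array at 120 h, with a log2 difference of -1.54. The call was lost with no filter on dim probes and without any 1 ZHBTc4 array other than LIF replicate 2. The Gm6882 and 0610005C13Rik calls were lost without LIF replicate 1, the Gm16853 call without LIF replicate 2 or 120 h replicate 2, the Defb36 call without 120 h replicate 1 or LIF replicate 2, and the Ntng1 call without LIF replicate 1 or 120 h replicate 2.

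The second question was what had already changed by 48 h. Of 28036 probes, 1317 (4.70%) were higher and 1007 (3.59%) lower at 48 h than with LIF, or 8.29% in all. In the Cy5 channel 55 probes (0.196%) were called. This balance depended on the processing: after normexp correction and loess, 597 were higher and 757 lower. The count was also the most dependent on single arrays, with 1048 probes called without 48 h replicate 1, 1225 without LIF replicate 1 and 1403 without LIF replicate 2. On the arrays of the second scan session alone, which leave 1 array at 48 h, limma called 0 probes, and 6581 had an unadjusted p under 0.05. With the scan session as a block, 1635 were called. This comparison and the one at 120 h share the LIF arrays.

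**Figure D2:**
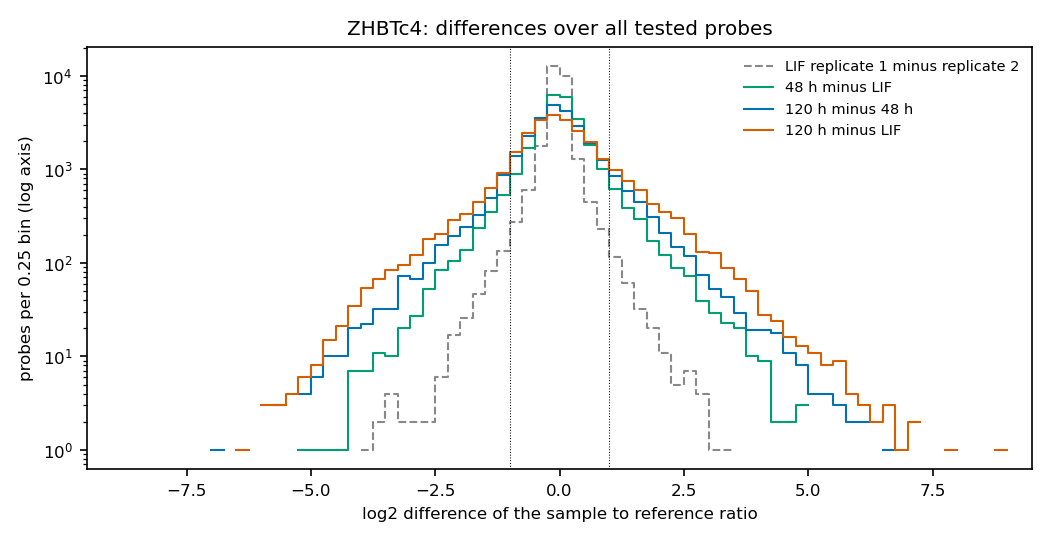
Distribution of log2 differences over the tested probes in 0.25-wide bins, with the number of probes on a log axis. The dashed line is the difference between both LIF arrays (SD 0.31), the solid lines the differences between group means, and the dotted lines mark 2-fold. The LIF arrays shared a slide. The pairs at 48 h and at 120 h, each on different slides, lay further apart (SD 0.47 and 0.52, not drawn). Differences at 120 h against LIF spread most widely (SD 1.17), those at 48 h less (SD 0.72).

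Of the 152 named genes, 1 was higher and 2 were lower at 48 h, or 1.97%, against 8.29% of all probes. The gene that rose was Bcl11a, a zinc finger repressor known for silencing fetal globin genes and also present in neural and lymphoid cells. Its log2 ratios were 0.59 and 0.55 with LIF, 2.34 and 2.28 at 48 h, then -0.73 and -1.34 at 120 h. It was thus highest at 48 h and lowest at 120 h, with no overlap between the groups. At 48 h it was 3.34-fold above LIF (limma, adjusted p = 0.00287), and at 120 h it was 3.05-fold below it (adjusted p = 0.00102). After normexp correction and loess the 120 h difference was -0.96, just under 2-fold, and the rise at 48 h was 1.39.

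The genes that fell by 48 h were both dim. 0610005C13Rik had ratios of 3.65 and 2.84 with LIF and 0.03 and 1.84 at 48 h, where 1 of 2 arrays was well above background. Xlr3b had ratios of 0.53 and -0.58 with LIF and -1.97 and -1.96 at 48 h, at least 3.27-fold lower. Both passed the brightness filter through the LIF arrays alone. The 2 LIF arrays of Xlr3b lay far apart. The Xlr3b call was lost without any 1 of the 4 arrays compared, and that of 0610005C13Rik without 48 h replicate 1 or either LIF array. Neither call passed after normexp correction and loess or when the 6 ZHBTc4 arrays were fitted alone.

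The last question within the course was what changed between 48 h and 120 h, when LIF was absent throughout. Of 28036 probes, 2544 (9.07%) were higher and 2197 (7.84%) lower at 120 h than at 48 h, or 16.9% in all, against 260 probes (0.927%) in the Cy5 channel. At least 4-fold differences were seen in 741 of the higher and 694 of the lower probes. On the Cy3 channel alone 2856 were higher and 3101 lower, so the balance turned here too. The replicates of 48 h and 120 h shared slides by number, and this comparison therefore holds the slide constant within each replicate.

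Of the 152 named genes, 7 were higher and 9 lower at 120 h than at 48 h, or 10.5%, against 16.9% of all probes. The groups did not overlap in 15 of these 16, the exception being Gm1673, and in 2541 of the 2544 higher and 2193 of the 2197 lower probes. Chil5, Gm11423 and Defb36 passed the filter only through the group in which they were higher. Bcl11a fell most, 10.2-fold (limma, log2 difference -3.35 ± 0.30, SE, n = 2 per group, adjusted p = 1.85e-05). Zbtb8a was 6.07-fold lower and Rpl38 3.02-fold lower over this interval, Tmc4 4.49-fold higher and Lamb2 3.36-fold higher. These 5, and Homer2 and Mif described below, kept their call under each alternative setting run for this interval. They were picked as large calls on the same arrays, and several settings leave the difference unchanged. Keeping the call was thus largely fixed beforehand and supports nothing further.

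Homer2 and Mif were called over this interval but were just short of 2-fold against LIF. Homer2, a scaffold protein of synapses and calcium signalling, had ratios of 1.66 and 1.55 with LIF, 1.95 and 2.32 at 48 h, then 0.28 and 0.95 at 120 h. It was 2.87-fold lower at 120 h than at 48 h (limma, adjusted p = 0.000238). Mif, the macrophage migration inhibitory factor, had 1.95 on both LIF arrays, 2.41 and 2.07 at 48 h, then 1.09 and 0.92 at 120 h, 2.35-fold lower than at 48 h (adjusted p = 0.000349). For both genes the 120 h arrays lay below all 4 earlier arrays.

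Adk, adenosine kinase, and Hspd1, the mitochondrial chaperonin Hsp60, were 2.03-fold and 2.07-fold lower at 120 h than at 48 h. Abhd6, a lipid hydrolase, was 2.01-fold higher and Podxl2, a sialomucin, 2.47-fold higher. Without any 1 of the 4 arrays compared the Hspd1 and Podxl2 calls were lost. The Adk call was lost without 48 h replicate 1 or 120 h replicate 2, and the Abhd6 call without 48 h replicate 2 or 120 h replicate 2. Ppp2r3c and Defb36 were at least 2.60-fold and 1.83-fold lower, and Chil5 and Gm11423 at least 2.24-fold and 2.30-fold higher. The Gm11423 call was lost without any 1 of those 4 arrays, and the Ppp2r3c call without 120 h replicate 1.

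**Figure D3:**
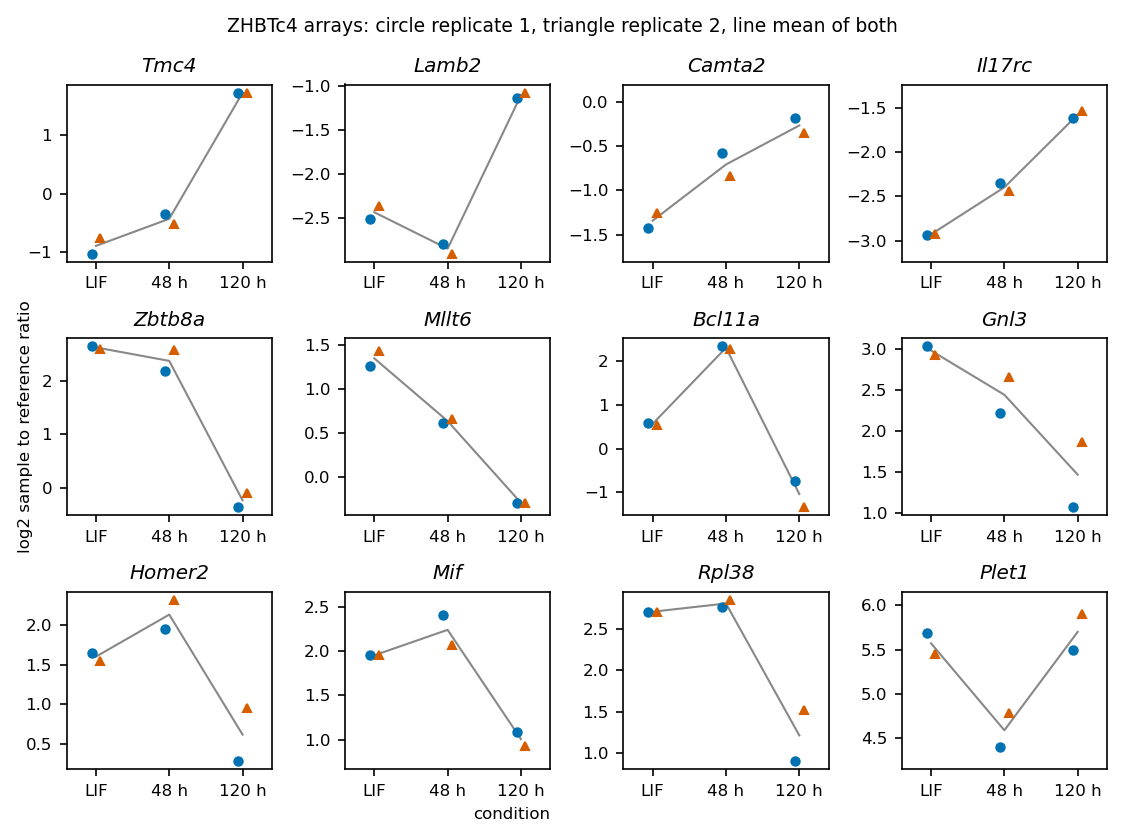
Log2 ratio of sample over reference on each ZHBTc4 array for 12 named genes, with replicate 1 as circles, replicate 2 as triangles and a line through the means. Each panel has its own vertical scale. Bcl11a peaked at 48 h (2.34 and 2.28), and Zbtb8a, Rpl38, Homer2 and Mif had 120 h arrays below all earlier ones.

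The listed genes that could be tested were Plet1 and Pax7. Plet1, a marker of trophoblast progenitors, had high ratios of 5.69 and 5.45 with LIF, 4.40 and 4.78 at 48 h, then 5.49 and 5.91 at 120 h. The 48 h arrays were the lowest, but neither the difference from LIF (-0.98, adjusted p = 0.152) nor the later one (1.11, adjusted p = 0.0642) passed limma's threshold. Pax7, a transcription factor of the dorsal neural tube and muscle progenitors, lay between -0.49 and 0.15 on the 6 arrays and did not pass in any of the 3 comparisons (adjusted p from 0.871 to 0.959).

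The next comparison set the 120 h change in ZHBTc4 against the same change in the derived lines. Per the labels, the Oct4 line carries an added moct4 construct and the Oct4VP2 line one written as oct4-vp16 with LIF and as moct4-vp16 without it. Cultures of both lines without LIF were plated in tetracycline and puromycin, which the labels name neither for ZHBTc4 nor for the Oct4 cultures with LIF. Oct4VP2 was plated at 250000 cells. The lines also differ in slide and scan session. These differences cannot be told apart from the constructs. Within the Oct4 line, both LIF arrays were on another slide and in another scan session than both 120 h arrays. Its own 120 h change therefore cannot be told apart from the drugs, slide or session. In Oct4VP2 the LIF and 120 h arrays also lay on different slides. Within each line, 23.0% of the probes were called at 120 h in Oct4 and 10.7% in Oct4VP2, against 25.2% in ZHBTc4. The tested probes had passed the brightness filter on ZHBTc4 arrays alone, so probes bright only in the other lines were left out. These shares and the counts below are therefore not on equal terms between the lines. By the test of the difference between changes, 1851 probes (6.60%) responded differently in ZHBTc4 and Oct4, and 4591 (16.4%) in ZHBTc4 and Oct4VP2. The first count fell to 936 without LIF replicate 1 and to 1045 without LIF replicate 2 of ZHBTc4. With no filter on dim probes, 1504 probes differed from Oct4 and 4361 from Oct4VP2.

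Of the 22 genes called at 120 h in ZHBTc4, 10 were also called in Oct4, each in the same direction. In Oct4VP2, 3 were called: Gm1673 and Gnl3 in the same direction and Bcl11a in the other. Of all tested probes, 23.0% were called in Oct4 and 10.7% in Oct4VP2. The share among all probes called in ZHBTc4 was not counted. The 10 include Gm11423 and Xlr3b, which passed the filter only through the ZHBTc4 group in which they were higher and support nothing further. Bcl11a changed by -1.61 ± 0.30 (SE) in ZHBTc4, by -1.06 in the Oct4 line and by 2.01 in the Oct4VP2 line on the log2 scale, and the difference between ZHBTc4 and Oct4VP2 passed (limma, -3.61, adjusted p = 0.000248). Lamb2 rose by 1.33 in ZHBTc4 and 2.08 in Oct4 and changed by -0.56 in Oct4VP2, again with a difference that passed against Oct4VP2 (1.89, adjusted p = 0.000724). Tmc4 rose by 2.63 and 1.77 in ZHBTc4 and Oct4, and its change in Oct4VP2 was 0.04. Mllt6 fell by 1.63 and 1.41 in ZHBTc4 and Oct4, and its change in Oct4VP2 was -0.18.

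Zbtb8a fell by 2.85 in ZHBTc4 and by 1.70 in Oct4, and its change in Oct4VP2 was -0.86, below 2-fold. Among the 22 it alone had a change called different between ZHBTc4 and Oct4 (limma, -1.16, adjusted p = 0.0188). Homer2 and Mif, which fell after 48 h in ZHBTc4, also differed. Their 120 h changes against LIF were -0.99 and -0.95 in ZHBTc4, with 0.48 and 0.06 in the Oct4 line, against 1.38 and 0.39 in Oct4VP2. Gnl3 changed by -1.51, -0.92 and -1.06 in the 3 lines, and neither difference between lines passed (adjusted p = 0.431 and 0.495).

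**Figure D4:**
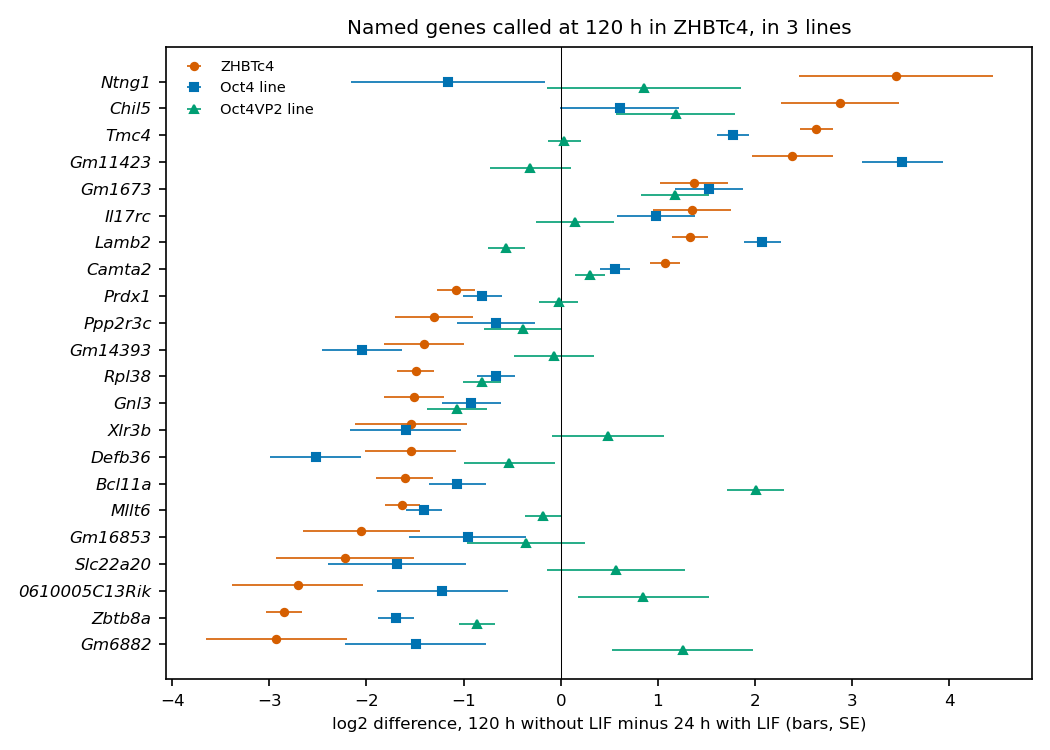
Log2 difference between 120 h without LIF and 24 h with LIF for the 22 named genes called in ZHBTc4 (circles), beside the same difference in the Oct4 line (squares) and the Oct4VP2 line (triangles), with bars of 1 SE. The genes were chosen by their ZHBTc4 values. Bcl11a lies at -1.61 in ZHBTc4, -1.06 in Oct4 and 2.01 in Oct4VP2.

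The probes' own sequences were then compared with their changes. Probes called higher at 120 h held a median of 43.3% G and C bases, against 45% in the probes called lower and in all tested probes. The share called higher was 17.2% among probes with 35 to 40% G and C and 6.50% among those with 60% or more, and the share called lower was 11.6% and 6.25%. The Cy5 signal, which comes from the same reference RNA on every array, moved with base content as well. Its median difference at 120 h was 0.19 below 35% G and C and -0.07 at 60% or more. The part of this shift in the calls was not tested.

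**Figure D5:**
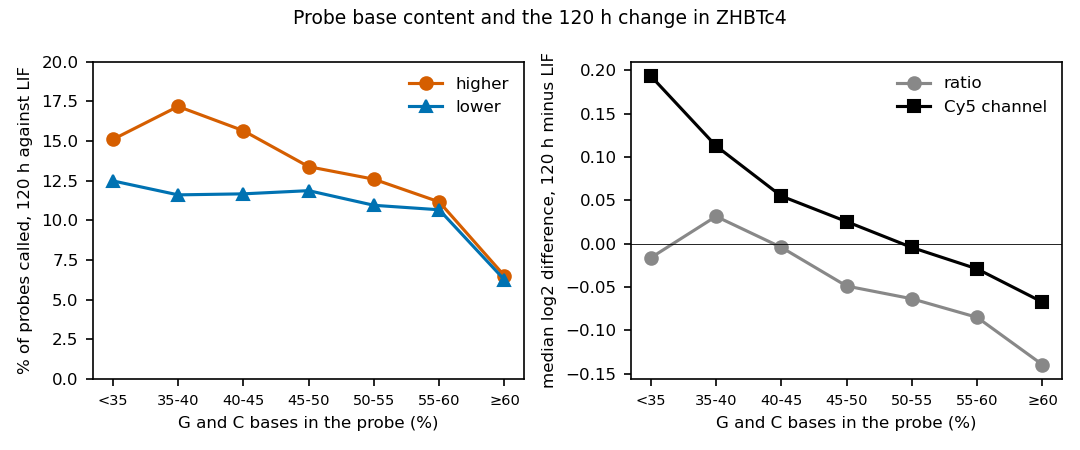
Share of probes called higher and lower at 120 h against LIF (left) and the median log2 difference of the ratio and of the Cy5 channel (right), by the percentage of G and C bases in the probe. The share called higher falls from 17.2% at 35 to 40% to 6.50% at 60% or more, and the Cy5 median from 0.19 below 35% to -0.07.

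The pentamer ATTTA, the core of AU-rich elements that destabilise many short-lived messages, was searched in the strand printed on the array only. It occurred in 7.03% of all tested probes, in 8.38% of those higher and 6.83% of those lower at 120 h, and in 9.49% of those higher at 48 h. It overlaps with low G and C content, and a match is only a description of these letters in the probe. The polyadenylation signal AATAAA occurred in 7.61% of all tested probes and in 7.82% of the higher and 7.65% of the lower ones at 120 h. At 48 h it occurred in 9.57% of the higher and 8.44% of the lower probes, and in the step from 48 h to 120 h in 7.94% and 8.60%.

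Probes that share sequence gave a check of the values. In 558 pairs that overlapped by 30 bases or more on the same strand, the 120 h differences of both probes lay a median of 0.10 apart on the log2 scale. Both were called in 156 pairs, 155 of them in the same direction, and 1 of both in 24. In 24 pairs on opposite strands the median distance was 0.40, both were called in 3 pairs and 1 of both in 8. Same-strand pairs share their target, and no pair is a replicate of the cultures.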

How the data were processed

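Total RNA of each culture (Cy3) and a universal mouse reference (Cy5), 2.5 μg each, were hybridised to 60-base NIA Mouse 44K arrays and scanned at 100% (Cy3) and 10% (Cy5) gain at 5 μm, per the labels. The deposited intensities were made with Agilent Feature Extraction 9.5.1.1, per the file headers, which subtracted background and normalised the dyes. The authors also deposited a table of 25030 probes on a log10 scale, with column medians of 2.33 to 2.36. After each probe had been centred over the arrays, 100% of its values matched log10 of processed Cy3 over Cy5 to within 0.001, so scale and direction are known, but not what was added per probe.

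Here the log2 ratio of the processed Cy3 over Cy5 intensity was taken, dropping outlier-flagged spots and averaging the spots of each probe. The filter required both arrays of at least 1 ZHBTc4 group to be well above background in Cy3 (28037 probes passed; 35 probes lacked a value on some ZHBTc4 array, which was dropped from their fit). limma 3.58.1 (R 4.3.3) fitted 9 group means to all 18 arrays, with residual degrees of freedom of 9 and a prior of 2.38. A probe was called at an adjusted p (Benjamini-Hochberg) under 0.05 with a 2-fold difference, the submitters' thresholds per the series description. The fit was tested on simulated data with independent noise on each array. That test lacked links between arrays, such as shared slides, and does not cover them.

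Names came from exact matches to 32851 RefSeq promoter windows: 431 probes matched and 259 were named. The brightest probe stood for a gene. Named were, per comparison, the 10 largest calls in each direction without overlap. The genes called at 120 h beyond these, and the uncalled ones, were named after their values were seen. The ZHBTc4 arrays, the gene lists and the named probes were chosen with earlier results of these data known. The main fit did not pair arrays by replicate number. Deviations of same-numbered arrays correlated at -0.05 and -0.02 between LIF and the later groups. Between 48 h and 120 h they correlated at 0.48. Same-numbered arrays of those groups shared slides, so a link by clone cannot be told apart from the slide. Alternatives were other background and dye corrections, scalings, filters, blocks and arrays left out.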

Additional observations from a re-analysis of the deposited data

Results flagged for a closer look

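The 120 h change differed between ZHBTc4 and Oct4 in 1851 probes and between ZHBTc4 and Oct4VP2 in 4591, by limma's test of the difference between the changes. By the same test 4 of 152 named genes (2.63%) were called against Oct4, below the 6.60% of all tested probes. Against Oct4VP2 17 of 152 (11.2%) were called, below the 16.4% of all tested probes. Those among them that were also called within the ZHBTc4 course are given here, as ZHBTc4 minus the other line on the log2 scale, followed by the others. Against Oct4 they were Homer2 (-1.47), Mif (-1.01) and Zbtb8a (-1.16). Against Oct4VP2, ZHBTc4 had the higher change for Tmc4 (2.59), Gm11423 (2.70), Lamb2 (1.89) and Abhd6 (1.20). It had the lower change for Gm6882 (-4.19), Bcl11a (-3.61), 0610005C13Rik (-3.56), Homer2 (-2.36), Zbtb8a (-1.99), Mllt6 (-1.45), Mif (-1.33), Adk (-1.12) and Prdx1 (-1.06). Genes called between the lines but not within the ZHBTc4 course were Rnf141 (-1.24) against Oct4, and Appbp2os (1.35), Frg2f1 (1.49), Gm3194 (-1.46) and Pitpnm2 (1.33) against Oct4VP2. Gm6882, 0610005C13Rik and Gm11423 are dim, and their sizes rest on signals near background. The lines also differ in slide, scan session and drug treatment. With slide as a random block, 1369 probes differed from Oct4 and 3723 from Oct4VP2, and with scan session as a block 2085 and 4725. These blocks do not separate slide and session from the lines, and the part of drug treatment was not tested. The tested probes were those bright on ZHBTc4 arrays.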

How the results depend on the processing

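Normexp correction with loess called 1354 probes at 48 h, 4478 at 120 h and 2674 between both times, fewer than the processed signals did. With the adjusted p alone and no minimum difference the counts were 4417, 13298 and 9990. In the second scan session alone, limma called 0 probes at 48 h (6581 at an unadjusted p under 0.05) and 6004 at 120 h. Leaving out 1 array gave 1048 to 2596 probes at 48 h, 6152 to 7160 at 120 h, 4220 to 4624 between both times, 936 to 1869 for the difference from Oct4 and 3354 to 4572 for that from Oct4VP2. A lone array left in a group was assumed to vary like the other groups. The balance of the difference from Oct4VP2 turned to 1608 higher and 1819 lower with normexp correction and loess. It turned to 2171 and 2371 with median-centred arrays, and to 2387 and 3169 with Cy3 alone. The balance of the difference from Oct4 turned to 595 and 646 with normexp correction and loess. With the replicate number as a block, 2483, 7201 and 4887 probes were called in the 3 ZHBTc4 comparisons and 2139 and 4985 for the differences from Oct4 and Oct4VP2. In the 6 ZHBTc4 arrays alone, a fit added after seeing the data, the replicate block gave 2435, 7220 and 4984. Whether the replicate numbers mark the same clone across groups is not stated in the labels. With slide as a random block (correlation 0.16) the 3 counts were 1933, 6763 and 4808. Of 609 values of named genes under the alternatives, 504 kept their call, 105 kept their direction without it and 0 reversed. The genes were picked as the largest calls on the same arrays, and several alternatives leave the difference itself unchanged. The lack of reversals was thus largely fixed beforehand and supports nothing further. Normexp correction with loess removed 21 of 36 calls, many on dim probes. Its offset of 50 pulls the ratios of dim probes towards 0 by construction. The part of the offset in the lost calls was not tested. Averaging the probes of a gene for the gene lists was not run, since too few list genes had a probe. Signal over background limits dim probes to bounds.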
